A study of Mus musculus with 10 samples.

Results

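Haemoglobin transcripts were measured in the visceral fat of mice with and without a pancreatic tumour through 6 genes: the beta-globin genes Hbb-bs and Hbb-bt, the alpha-globin genes Hba-a1 and Hba-a2, the haem synthesis gene Alas2 and the anion exchanger gene Slc4a1. They were chosen by symbol, and all 6 were found among the 16667 genes of the table of normalized counts and the 29242 genes listed with TPM (each transcript's share of the library after division by its length). The tumour group, called KPC, held 5 wild-type C57BL/6 mice with a KPC tumour, a model of pancreatic ductal adenocarcinoma, placed in the pancreas. The sham group held 5 wild-type C57BL/6 mice that had sham surgery. All 10 mice were 10 weeks old, each gave 1 library from whole visceral adipose tissue, and the sample titles carry the suffix gwat. The protocols given for the samples name flash freezing and do not mention perfusion.

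Haemoglobin, the oxygen carrier of blood, is a tetramer of alpha and beta chains that each hold a haem group. Its genes are switched on in red cell precursors under GATA1 and KLF1, and a reticulocyte, the young red cell that has lost its nucleus, still carries globin messenger RNA into the circulation. ALAS2 catalyses the first and rate-limiting step of haem synthesis in the red cell line, and SLC4A1, also called band 3, exchanges chloride for bicarbonate across the red cell membrane and anchors its cytoskeleton. In bulk tissue, a different number of red cells and a different amount of RNA per red cell cannot be told apart.

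On the GRCm38 (mm10) build with the GENCODE vM21 annotation, the beta-globin genes lie on the minus strand of chromosome 7, Hbb-bs (ENSMUSG00000052305) at 103826534 to 103828096 and Hbb-bt (ENSMUSG00000073940) at 103812524 to 103813996. The alpha-globin genes lie on the plus strand of chromosome 11, Hba-a1 (ENSMUSG00000069919) at 32283511 to 32284465 and Hba-a2 (ENSMUSG00000069917) at 32296489 to 32297298. Slc4a1 (ENSMUSG00000006574) lies on the minus strand of chromosome 11 at 102348824 to 102366203, and Alas2 (ENSMUSG00000025270) on the plus strand of chromosome X at 150547375 to 150570638. All 6 are protein-coding. Alas2 overlaps Apex2, which runs on the opposite strand, and since the strand setting of the counting is not given in the sources used here, reads of these 2 genes cannot be told apart where they overlap.

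The adult copies are nearly the same over their coding bases, which bears on every value below that separates them. Over the 426 coding bases, Hba-a2 differed from Hba-a1 by 1 base, C381T, and over the 441 coding bases, Hbb-bt differed from Hbb-bs by 1 base, C417T, with positions counted from 1 at the first base of the start codon. The 30 coding bases around each difference are shown because they hold the only coding base that separates the copies, in capitals.
Hba-a2: catgcctctctggaTaaattccttgcctct
Hba-a1: catgcctctctggaCaaattccttgcctct
Hbb-bt: gtggctggagtggcTgctgccctggctcac
Hbb-bs: gtggctggagtggcCgctgccctggctcac
Of the 31-base words in the main annotated transcript, 91.0% were shared with another gene for Hba-a2, 71.4% for Hba-a1, 66.9% for Hbb-bs and 59.4% for Hbb-bt. For Alas2 the share was 15.6%, with Apex2 as the gene that shared most, and for Slc4a1 it was 0. Salmon, named in the submitters' processing notes, divides such reads between copies by an estimate, so the level of either copy is uncertain and the sum of a pair less so.

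The 250 bases before the RefSeq start (GRCm38.p6) of the 4 globin genes and Alas2 are shown with words known from erythroid promoters. The part of these words in the levels across mice was not tested. Slc4a1 had no entry. Capitals mark GATAA (the word of GATA factors), CACCC (the word of KLF factors), the CCAAT box and the TATAA box, each on either strand, and neighbouring or overlapping matches run together. The Hba-a2 window is not printed: with 50 bases after the start included, it was identical to that of Hba-a1 over all 297 bases that align once shifted by 3. The windows are chr7:103827929-103828178 (minus strand), chr7:103813924-103814173 (minus strand), chr11:32283422-32283671 (plus strand) and chrX:150547167-150547416 (plus strand).
Hbb-bs: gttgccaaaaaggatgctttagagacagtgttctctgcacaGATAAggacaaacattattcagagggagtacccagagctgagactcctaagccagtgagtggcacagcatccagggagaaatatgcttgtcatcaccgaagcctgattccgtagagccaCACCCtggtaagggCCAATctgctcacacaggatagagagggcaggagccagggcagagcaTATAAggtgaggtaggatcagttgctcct
Hbb-bt: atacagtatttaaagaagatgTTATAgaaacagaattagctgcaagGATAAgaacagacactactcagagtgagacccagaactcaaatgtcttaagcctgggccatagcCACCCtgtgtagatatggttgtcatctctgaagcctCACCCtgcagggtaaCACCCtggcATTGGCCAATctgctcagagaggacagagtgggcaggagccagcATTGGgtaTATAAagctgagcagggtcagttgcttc
Hba-a1: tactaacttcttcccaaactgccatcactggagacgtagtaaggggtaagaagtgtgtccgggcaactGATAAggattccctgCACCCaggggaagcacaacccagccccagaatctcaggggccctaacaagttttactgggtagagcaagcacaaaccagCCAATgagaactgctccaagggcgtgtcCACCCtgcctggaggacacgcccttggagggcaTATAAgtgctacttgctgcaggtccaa
Alas2: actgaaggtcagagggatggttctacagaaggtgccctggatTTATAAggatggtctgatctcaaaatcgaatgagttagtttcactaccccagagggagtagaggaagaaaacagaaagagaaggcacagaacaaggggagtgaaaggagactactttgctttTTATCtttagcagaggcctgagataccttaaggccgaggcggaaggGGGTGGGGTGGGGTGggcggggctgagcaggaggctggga
All 4 globin windows held all 4 words, with the Hba-a1 and Hba-a2 windows being the same stretch shifted by 3. Alas2 held 3 of the words, lacking CCAAT, with a word counted anywhere in the window. Its TATAA matches began 208 and 207 bases before the start, where each globin window held a match at 27 to 30 bases. Among 32851 RefSeq windows of the same length, 22.6% held the GATAA word, 52.0% held the CACCC word, 33.8% held the CCAAT box, 22.8% held the TATAA box and 0.968% held all of them. In Hbb-bs the 4 words, in the order named, began 209, 90, 76 and 29 bases before the start. In Hba-a1 the GATAA word began at 182, the CACCC word at 167 and again at 60, the CCAAT box at 88 and the TATAA box at 27. A match describes the letters and shows no binding in fat.

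Totals of normalized counts, which do not give sequencing depth, ran from about 20941200 (KPC mouse 1) to 24449900 (sham mouse 1). The library of KPC mouse 1 stood apart, with mitochondrially encoded genes at 15.7% of listed TPM, where the other 4 KPC mice had 26.3% to 32.004% and the 5 sham mice 26.5% to 33.3%. Adipocyte markers showed the labelled tissue in every library, with a summed level of 39648 to 47278 TPM in KPC and 39169 to 47775 TPM in sham mice over 10 genes. The differences of the 6 genes and the alpha to beta ratio are therefore also given without KPC mouse 1.

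Hbb-bs was the most abundant of the 4 globin transcripts in each mouse. It stood at 20696, 9177, 4757, 3915 and 5256 TPM in KPC mice 1 to 5, against 5420, 4318, 2698, 2063 and 5551 TPM in sham mice 1 to 5. KPC mice 1 and 2 lay above every sham mouse, KPC mice 3 to 5 lay among them, and sham mice 3 and 4 were lowest. In KPC mouse 1 it was the second most abundant of all listed transcripts by TPM, and in sham mouse 4 it ranked 33. The mean was 8760 ± 6971 TPM in KPC and 4010 ± 1579 TPM in sham mice (SD, n = 5 each).

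The second beta-globin gene, Hbb-bt, was lower in each mouse. It stood at 2930, 1632, 733.0, 584 and 733.2 TPM in KPC mice 1 to 5, against 983 TPM, 671 TPM, 403 TPM, 315 TPM and 874 TPM in sham mice 1 to 5. Again KPC mice 1 and 2 were above all sham mice and the other 3 KPC mice were within the sham range. The alpha-globin gene Hba-a2 stood at 11406, 6308, 3260, 2717 and 3450 TPM in KPC mice 1 to 5, against 4290, 3119, 1959, 1602 and 4289 TPM in sham mice 1 to 5. Its near copy Hba-a1 stood at 5573, 3085, 1516, 1304 and 1749 TPM in KPC mice 1 to 5, against 1997, 1594, 934, 754 and 2118 TPM in sham mice 1 to 5. Both alpha genes overlapped between the groups in the way of the beta genes.

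Together the 4 globin transcripts took 4.42%, 2.19%, 1.11%, 0.923% and 1.20% of listed TPM in KPC mice 1 to 5, against 1.36%, 1.05%, 0.650%, 0.510% and 1.38% in sham mice 1 to 5. The lowest and highest mouse differed by 10.0-fold in Hbb-bs TPM, 9.29-fold in Hbb-bt, 7.39-fold in Hba-a1 and 7.12-fold in Hba-a2.

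Alas2, the haem synthesis enzyme of the red cell line, stood at 107, 68.9, 32.3, 27.2 and 32.9 TPM in KPC mice 1 to 5, against 38.9, 27.8, 15.8, 12.7 and 35.96 TPM in sham mice 1 to 5. As with the globins, KPC mice 1 and 2 lay above every sham mouse and sham mice 3 and 4 were lowest. Slc4a1, the red cell anion exchanger, was a low transcript at 2.57, 2.58, 0.656, 1.62 and 0.612 TPM in KPC mice 1 to 5, against 1.18, 0.750, 0.440, 0.200 and 0.689 TPM in sham mice 1 to 5. Here 3 KPC mice, numbers 1, 2 and 4, lay above all sham mice, and KPC mice 3 and 5 lay within the sham range.

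**Figure D1:**
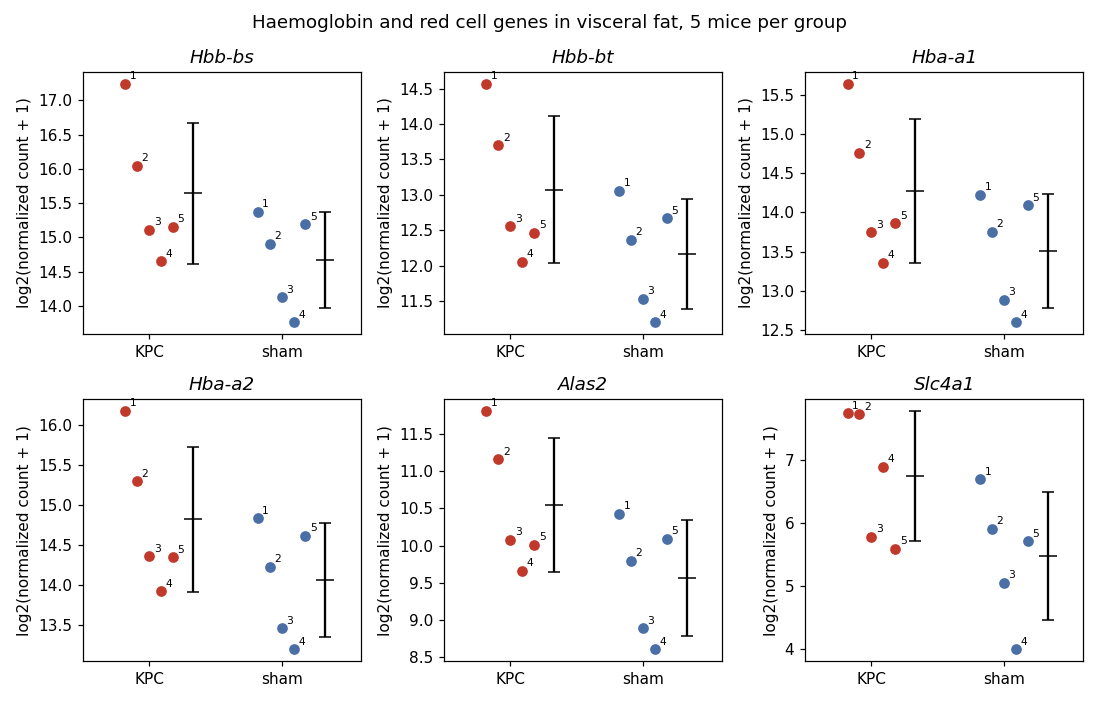
Level of each gene in each mouse as log2(normalized count + 1), KPC left of sham. Points are mice, labelled by their number, and the bar beside each group is the mean with its SD (n = 5). In all 6 panels the groups overlap, and KPC mice 1 and 2 lie above every sham mouse.

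Between KPC and sham mice, none of the 6 genes passed limma's test over the 14203 genes whose normalized counts averaged 10 or more, at an adjusted p of 0.05. All 6 passed that filter on low values. Across all genes tested, 8 passed (0.0563%). On the log2(normalized count + 1) scale the difference was 0.97 ± 0.48 for Hbb-bs (SE, 95% interval -0.08 to 2.02), and its limma adjusted p was 0.404. The other globin differences were 0.91 ± 0.49 for Hbb-bt, 0.76 ± 0.45 for Hba-a1 and 0.76 ± 0.45 for Hba-a2, with limma adjusted p of 0.442, 0.476 and 0.476. Alas2 differed by 0.99 ± 0.46 (95% interval -0.01 to 1.99, limma adjusted p = 0.374) and Slc4a1 by 1.27 ± 0.56 (95% interval 0.04 to 2.51, limma adjusted p = 0.357).

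The intervals leave room for anything from a small decrease to about a 4-fold increase of the globins in KPC mice. As a fold, Hbb-bs was at 1.96 (95% interval 0.944 to 4.07) and Alas2 at 1.98 (95% interval 0.990 to 3.96). The exact two-sided permutation test over the 252 assignments of 5 of 10 mice gave p = 0.135 for Hbb-bs, 0.159 for Hbb-bt, 0.190 for Hba-a1, 0.198 for Hba-a2, 0.135 for Alas2 and 0.0952 for Slc4a1, each unadjusted, where the smallest it can give is 0.00794. By limma, 1 of the 6 genes, Slc4a1, had an unadjusted p under 0.05, where 13.5% of all genes tested did and 7.61% did with a higher level in KPC. For 0 of the 6 did the groups separate without overlap, where 4.03% of all genes tested did.

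Single mice carried much of these differences. Without KPC mouse 1 the difference was 0.57 for Hbb-bs, 0.53 for Hbb-bt, 0.42 for both alpha genes, 0.67 for Alas2 and 1.02 for Slc4a1. The first number of each sample title, whose meaning the labels do not give, placed mice 1 and 2 of both groups under number 1. Within number 1 (2 KPC and 2 sham mice) the 6 differences were 1.21 to 1.51, and within number 2 (1 KPC and 2 sham mice) they were 1.01 to 1.34. Within number 4 (2 KPC and 1 sham mouse) the globin and Alas2 differences were -0.48 to -0.26 and that of Slc4a1 was 0.53. The direction therefore held within number 4 for Slc4a1 but not for the globins and Alas2.

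**Figure D2:**
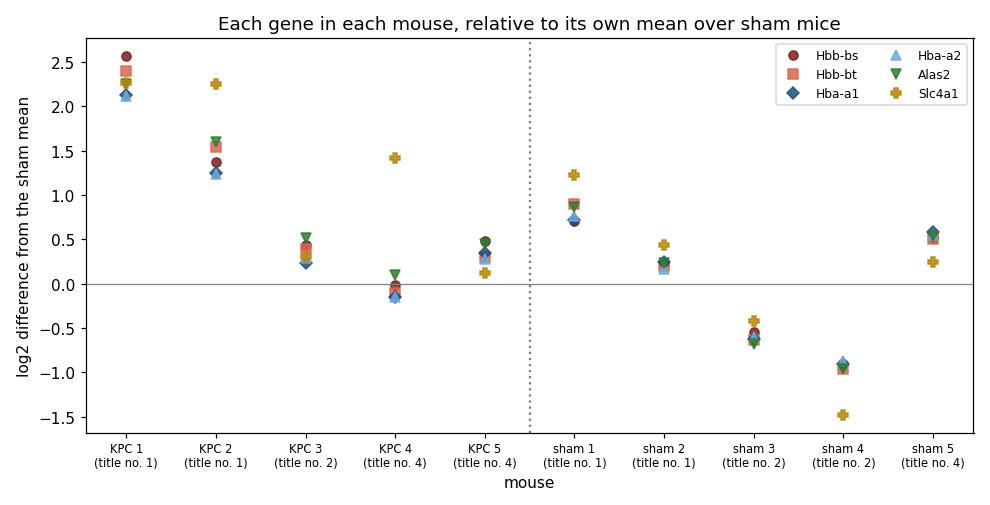
Log2 difference of each gene in each mouse from the gene's own mean over the sham mice, with the first number of the sample title under each mouse. Symbols are genes. The globins and Alas2 lie close together in every mouse, from about 2.57 for Hbb-bs in KPC mouse 1 to -0.96 for Hbb-bt in sham mouse 4, and Slc4a1 departs from them most in KPC mouse 4, at 1.42.

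The 4 globins and Alas2 varied in step. Over the 10 mice, on log2(normalized count + 1), the 10 pairs among these 5 genes had Pearson's r of 0.987 to 0.999 and Spearman's rho of 0.964 to 1, each with a permutation p adjusted over all 15 pairs of at most 9e-05. For Pearson's r the unadjusted permutation p was 1e-05 for all 10 pairs, the smallest that 100000 resamples can give. After adjustment this permutation p was 1.5e-05. Without the 2 mice farthest from the median of the first gene, r was 0.977 to 0.996, and for deviations from the group means it was 0.982 to 0.998. Near copies share reads that are divided by an estimate, and its part in the likeness within the alpha and the beta pair was not tested.

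Slc4a1 followed less closely. Its 5 pairs had r of 0.843 to 0.887 and rho of 0.709 to 0.733, with permutation p adjusted over 15 pairs of at most 0.0267. Without the 2 farthest mice r was 0.669 to 0.764, and the adjusted exact permutation p was above 0.05 in 3 of the 5 pairs. Within-group deviations gave r of 0.777 to 0.837.

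The balance of alpha to beta transcripts was the 1 of 5 ratios among these genes in which the groups did not overlap. As summed TPM of both copies on a log2 scale, alpha to beta stood at -0.48, -0.20, -0.20, -0.16 and -0.20 in KPC mice 1 to 5, against -0.03, -0.08, -0.10, -0.01 and -0.004 in sham mice 1 to 5. Every KPC mouse had fewer alpha transcripts per beta transcript than every sham mouse. The mean was -0.25 ± 0.13 in KPC and -0.05 ± 0.04 in sham mice (SD, n = 5 each), a difference of -0.20. KPC mouse 1 had the lowest value, and the difference was -0.15 without it. It was -0.29 within title number 1, -0.14 within number 2 and -0.18 within number 4.

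Of the 4 single pairs of an alpha with a beta gene, the 2 with Hbb-bs did not overlap between the groups and the 2 with Hbb-bt did. Hba-a2 to Hbb-bs stood at -0.86 to -0.53 in KPC and -0.47 to -0.34 in sham mice on the log2 scale, and Hba-a2 to Hbb-bt at 1.95 to 2.23 in KPC and 2.13 to 2.34 in sham mice. The single pairs use the same transcripts as the summed ratio, so they do not add to it independently. How often ratios of other genes separate the groups was not examined. These ratios were examined after the levels were known and are given without a test.

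The other proportions overlapped. Hba-a2 to Hba-a1 averaged 1.04 ± 0.05 in KPC and 1.05 ± 0.06 in sham mice on the log2 scale (SD, n = 5 each). Hbb-bt to Hbb-bs averaged -2.72 ± 0.14 in KPC and -2.65 ± 0.11 in sham mice. Alas2 to Hbb-bs averaged -7.27 ± 0.21 in KPC and -7.29 ± 0.11 in sham mice, and Slc4a1 to Hbb-bs -12.4 ± 0.82 in KPC and -12.7 ± 0.45 in sham mice.

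**Figure D3:**
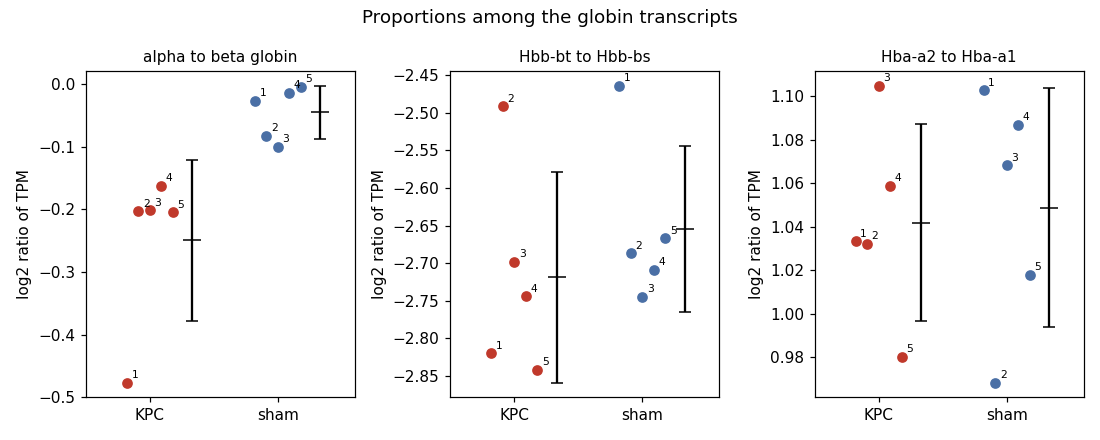
Log2 ratios of TPM among globin transcripts in each mouse, KPC left of sham: summed alpha to summed beta, Hbb-bt to Hbb-bs and Hba-a2 to Hba-a1. Points are mice labelled by number, and bars are mean and SD (n = 5). In the left panel the highest KPC mouse, at -0.16, lies below the lowest sham mouse, at -0.10.

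Hbb-y, Hbb-bh1, Hbb-bh2 and Hba-x, the embryonic or minor chains of the same gene clusters, were listed at 0 TPM in all 10 libraries. The theta-like genes Hbq1a and Hbq1b stood at 0 to 0.817 and 0 to 2.21 TPM in KPC mice, against 0 to 0.587 and 0.166 to 1.37 TPM in sham mice, and were too low to test. Among globins outside red cells, cytoglobin (Cygb), a gene of fibroblast-like cells, stood at 57.7 ± 10.4 TPM in KPC and 42.8 ± 4.24 TPM in sham mice, with a log2 difference of 0.45 ± 0.12 and a limma adjusted p of 0.177. Myoglobin (Mb), the oxygen store of muscle, stood at 0.813 to 8.998 TPM in KPC and 1.29 to 68.8 TPM in sham mice, with a limma adjusted p of 0.334. Neuroglobin (Ngb) differed by -0.04 on the log2 scale, with a limma adjusted p of 0.973. The summed level of 10 skeletal muscle markers ran beside that of Mb, at 50.5 to 229 TPM in KPC and 48.5 to 4185 TPM in sham mice. Its part in the Mb values was not tested.

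Genes of red cell precursors such as Gata1 and Klf1 were near 0, and listed genes of late red cells ranged from near 0 to measurable. The master regulators Gata1 and Klf1 stood at 0.0376 to 0.284 and 0.0912 to 0.220 TPM in KPC mice, against 0.0635 to 0.222 and 0 to 0.339 TPM in sham mice. Hemgn and Trim58 stand in the list of red cell enzyme and reticulocyte genes. They reached at most 0.0236 and 0.0694 TPM in KPC mice, and 0.0269 and 0.0291 TPM in sham mice. Gfi1b, a repressor of the red cell and platelet lines, and Myb, a factor of progenitors, stood at 0.0425 to 1.09 and 0.0724 to 0.183 TPM in KPC mice, against 0.101 to 0.415 and 0.0606 to 0.141 TPM in sham mice. None of these passed the filter on low values. Over all genes tested, 46.9% had a positive difference, the share to set beside the counts of positive differences below. Of the 11 transcription factors listed, 7 were tested, all with a positive difference and 0 called. These included Tal1 and Lmo2, partners of GATA1 that endothelial cells also express. Tal1 stood at 1.92 ± 0.218 TPM in KPC and 1.49 ± 0.183 TPM in sham mice (limma adjusted p = 0.310), and Lmo2 at 35.3 ± 9.53 and 27.1 ± 5.43 TPM (limma adjusted p = 0.348). Bach1, a haem-sensing repressor, stood at 9.36 ± 2.28 TPM in KPC and 6.83 ± 1.08 TPM in sham mice, with a limma adjusted p of 0.285. Nfe2, a factor of red cells and platelets, stood at 1.09 ± 0.726 TPM in KPC and 0.547 ± 0.150 TPM in sham mice, with a limma adjusted p of 0.474.

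Of 21 red cell membrane and cytoskeleton genes, 15 were tested, 9 with a positive and 6 with a negative difference, and 0 passed. The median log2 difference was 0.14, where that of all genes tested was -0.02. Of the list, 2 genes did not overlap between groups, in opposite directions, where 2.75% of all genes tested had every KPC mouse above and 1.28% every KPC mouse below. Epb41, which encodes protein 4.1 of the cytoskeleton and is active in many tissues, stood at 19.7 ± 2.43 TPM in KPC and 14.5 ± 0.692 TPM in sham mice (limma adjusted p = 0.0885). Gypc, encoding glycophorin C, stood at 20.5 ± 5.32 TPM in KPC and 28.4 ± 1.77 TPM in sham mice (limma adjusted p = 0.252). The water channel gene Aqp1, which vessels express strongly, stood at 384 ± 126 TPM in KPC and 252 ± 31.2 TPM in sham mice (limma adjusted p = 0.244). Ank1, encoding the anchor of the anion exchanger and also a muscle transcript, stood at 0.527 to 1.37 TPM in KPC and 0.529 to 20.4 TPM in sham mice, with a limma adjusted p of 0.377. Add2 was listed at 0 in all libraries, and Rhag, Rhd, Kel, Ermap and Icam4 stayed at or below 0.560 TPM.

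Among 25 red cell enzyme and reticulocyte genes in the tables, 23 were tested, 18 with a positive and 5 with a negative difference, and 0 passed. The median log2 difference was 0.19. The ubiquitin-conjugating gene Ube2l6, which interferon also induces, stood at 48.5 ± 19.6 TPM in KPC and 31.8 ± 3.14 TPM in sham mice (limma adjusted p = 0.315). Isg20, an exonuclease gene, stood at 31.7 ± 7.45 and 23.8 ± 1.32 TPM in KPC and sham mice (limma adjusted p = 0.332), and Mkrn1, a ubiquitin ligase gene, at 45.7 ± 10.4 and 36.01 ± 4.59 TPM (limma adjusted p = 0.342).

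Of 14 genes of haem synthesis and its transport other than Alas2, all tested, 3 had a positive and 11 a negative difference, with a median of -0.06 and 0 called. The mitochondrial iron importer gene Slc25a37, encoding mitoferrin 1, stood at 7.18 ± 1.82 TPM in KPC and 5.23 ± 0.693 TPM in sham mice (limma adjusted p = 0.307). Alas1, the housekeeping counterpart of Alas2, stood at 118 ± 22.5 TPM in KPC and 99.6 ± 25.4 TPM in sham mice (limma adjusted p = 0.475). Alad, the second enzyme of the pathway, stood at 66.5 ± 10.9 TPM in KPC and 81.0 ± 7.27 TPM in sham mice (limma adjusted p = 0.405), and the transporter gene Abcb10 at 7.74 ± 1.41 and 9.27 ± 0.998 TPM (limma adjusted p = 0.447).

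**Figure D4:**
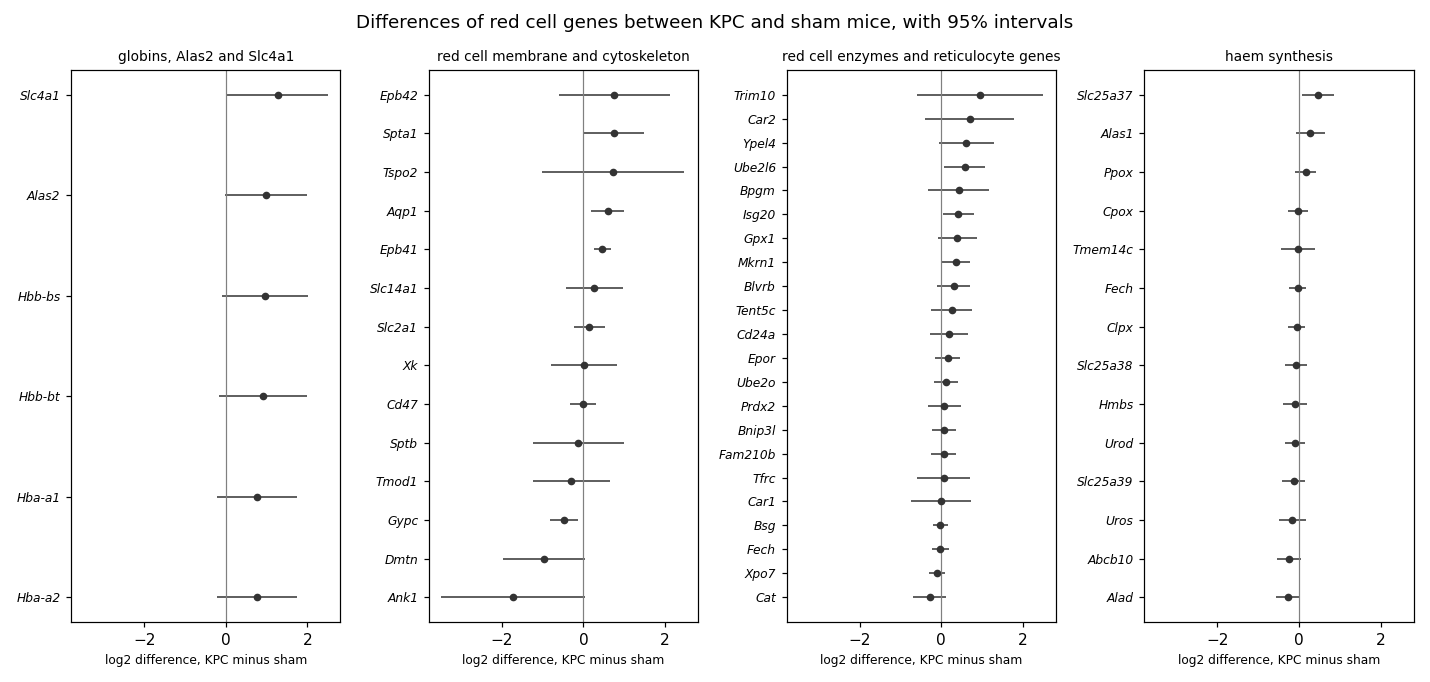
Log2 difference between KPC and sham mice with its 95% interval from limma, for the globins, Alas2 and Slc4a1 and for tested genes of 3 red cell lists, each sorted by its difference. Points to the right of 0 are higher in KPC. Slc4a1, at 1.27, has the widest interval of the first panel, and the haem synthesis genes lie close to 0.

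The genes most like the 6 in their levels over the 10 mice were in part red cell genes. Of 11792 other named genes averaging 50 or more normalized counts, the 10 with the highest Pearson's r to the mean of the standardized values of the 6 included Junb (0.974), Bpgm (0.967), Slc39a1 (0.951), Ier5 (0.950), Apol11b (0.946), Rnaset2b (0.937), Ccl19 (0.935) and Tent5c (0.932). Of these, Bpgm and Tent5c stand in the red cell lists, where those lists held 51 of the 11792 genes (0.432%). Bpgm makes 2,3-bisphosphoglycerate, which lowers the oxygen affinity of haemoglobin. It stood at 52.7, 35.8, 18.5, 19.1 and 18.6 TPM in KPC mice 1 to 5, against 27.4, 23.1, 14.6, 14.7 and 23.2 TPM in sham mice 1 to 5. The immediate early gene Junb stood at 111, 62.4, 33.2, 24.9 and 32.1 TPM in KPC mice 1 to 5, against 30.1, 21.7, 13.8, 13.4 and 41.2 TPM in sham mice 1 to 5. Without KPC mouse 1, r was 0.952 for Junb and 0.937 for Bpgm. These correlations describe 10 mice that share their libraries and scaling, and were picked as the highest among all genes.

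Of 15 genes that bind and clear free haemoglobin and haem, 14 were tested, 10 with a positive and 4 with a negative difference, a median of 0.32 and 0 called. Hp, encoding haptoglobin, which binds free haemoglobin and which fat cells make in inflammation, stood at 1712 to 7397 TPM in KPC and 512 to 1454 TPM in sham mice without overlap, a difference of 1.80 ± 0.38 with a limma adjusted p of 0.0994. Cd163, the macrophage receptor for the complex of haptoglobin and haemoglobin, stood at 34.4 ± 9.28 TPM in KPC and 21.2 ± 7.07 TPM in sham mice (limma adjusted p = 0.158). Fth1, the heavy chain of the iron store ferritin, stood at 3100 ± 341 TPM in KPC and 2475 ± 214 TPM in sham mice without overlap (limma adjusted p = 0.309). Slc40a1, the iron exporter ferroportin, stood at 5.45 ± 1.14 TPM in KPC and 8.23 ± 2.42 TPM in sham mice (limma adjusted p = 0.299). Hmox1, the haem-degrading enzyme, stood at 33.1 to 133 TPM in KPC and 23.9 to 38.8 TPM in sham mice (limma adjusted p = 0.367). KPC mouse 1 held the highest value of both Hp and Hmox1, and the next highest KPC mouse stood at 3177 TPM for Hp and 49.96 TPM for Hmox1. Hpx, which binds free haem, stood at 0.0589 to 1.08 TPM in KPC and 0.0419 to 1.25 TPM in sham mice.

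Markers of other blood cells were set beside the red cell genes mouse by mouse. Relative to the sham mean on the log2 scale, the 6 genes averaged 2.29, 1.54, 0.36, 0.18 and 0.33 in KPC mice 1 to 5, against 0.86, 0.25, -0.59, -1.02 and 0.49 in sham mice 1 to 5. Over 5 tested platelet markers the values were 1.34, 0.75, 0.08, 0.38 and 0.30 in KPC mice, against -0.03, -0.02, 0.04, -0.08 and 0.09 in sham mice. KPC mice 1 and 2 were highest in both. Over 9 tested neutrophil markers the values were 2.18, 1.17, 1.29, 0.11 and 0.40 in KPC mice, against 0.61, -0.02, -0.12, -0.25 and -0.23 in sham mice.

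Of the 12 platelet markers, 7 were too low to test. The chemokine gene Ppbp of platelets stood at 2.25 to 6.28 TPM in KPC and 1.04 to 1.84 TPM in sham mice without overlap (limma adjusted p = 0.180), and the next highest KPC mouse after number 1 stood at 3.39 TPM. The summed level of the 12 markers was 145 to 427 TPM in KPC and 136 to 197 TPM in sham mice, most of it from Pf4, which macrophages also express. Of 14 neutrophil markers, 9 were tested, all with a positive difference, and the sum was 53.0 to 314 TPM in KPC and 38.6 to 78.2 TPM in sham mice. Camp, a neutrophil granule gene, stood at 0 to 0.458 TPM in KPC mice, with 2 of the 5 at 0. It was listed at 0 in all 5 sham mice and was too low to test. Another marker, Elane, stood at 2.03 to 3.51 TPM in KPC and 1.30 to 3.92 TPM in sham mice (limma adjusted p = 0.765). The smallest p of the list were those of Lcn2 and Csf3r. Lcn2 stood at 6.46 to 38.9 TPM in KPC and 1.77 to 3.49 TPM in sham mice (limma adjusted p = 0.102). Csf3r stood at 2.39 to 9.69 and 0.980 to 1.67 TPM (limma adjusted p = 0.189). Summed levels of the 10 monocyte markers were 163 to 783 TPM in KPC and 90.8 to 130.1 TPM in sham mice, with 10 of 10 differences positive, and those of the 10 macrophage markers 1529 to 6162 TPM in KPC and 905 to 1467 TPM in sham mice, with 10 of 10 positive. The 10 T cell markers summed to 15.8 to 22.8 TPM in KPC and 9.92 to 13.5 TPM in sham mice, with 9 of 9 tested differences positive. The 8 B cell markers summed to 138 to 509 TPM in KPC and 191 to 511 TPM in sham mice, with 3 of 6 positive. The 12 endothelial markers summed to 532 to 747 TPM in KPC and 560 to 663 TPM in sham mice, with a median difference of 0.06. In none of these marker lists did a gene pass over all genes tested. The groups did not overlap in 1 of 5 tested platelet, 2 of 9 neutrophil, 2 of 10 monocyte and 4 of 10 macrophage markers. Nor did they in 1 of 9 T cell, 1 of 6 B cell and 1 of 12 endothelial markers. Over all genes tested, 4.03% did not overlap and 46.9% had a positive difference. The highest KPC value of the platelet, neutrophil, monocyte and macrophage sums was that of KPC mouse 1, and without it the highest KPC sums were 239.8, 110.1, 227 and 2254 TPM in that order. The part of other blood cells or of title number in the red cell values was not tested.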

How the data were processed

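RNA sequencing of visceral fat from 10 mice was used, 5 KPC and 5 sham, grouped by the labels. The submitters' processing notes name Salmon, DESeq2, DESeq and the mm10 build. Not given in the sources used here are tool versions, the gene models and whether counting used strand. The authors deposited counts normalized between samples, handled as a signal that is not whole reads, and TPM. Both tables hold 1 column per mouse, and all 20 columns matched a sample title. Sequencing depth is not known, since the totals given are of counts already scaled between samples.

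The 14203 genes averaging 10 or more normalized counts entered limma 3.58.1 (R 4.3.3) on log2(normalized count + 1) with a variance trend, with Benjamini-Hochberg adjustment and a threshold of 0.05. The log2(value + 1) scale understates changes of low genes. The fit was tested on simulated data. Labels do not give litters or cages, so p-values cover the spread between 5 mice per group. The 6 genes, the 16 companion lists and all tests were chosen with earlier results of these data known. Of each list the text names up to 4 tested genes with the smallest p. Hemgn, Trim58, Hmox1, Hpx, Camp, Elane and single low genes were added as list members after their values were seen. Correlations used permutation in Python 3.11.15 with scipy 1.17.1. Coordinates, transcripts and promoter windows came from GENCODE vM21 and RefSeq, and some results for single genes are not reported here. Alternatives were other pseudocounts, filters, scalings, variance models and blocks, TPM, and leaving out each mouse.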

Additional observations from a re-analysis of the deposited data

Results flagged for a closer look

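In KPC mouse 1 the log2 ratio of alpha to beta globin was -0.48, set apart from the other 4 KPC mice, of which the nearest was at -0.20. In sham mouse 1 the log2 ratio of Hbb-bt to Hbb-bs was -2.46, set apart from the other 4 sham mice, of which the nearest was at -2.67. These were 2 of 22 groups of 5 mice examined for a single distant mouse, and chance flags about 1 in 20.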

How the results depend on the processing

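Under the 21 alternatives, all 6 differences between KPC and sham stayed positive and above an adjusted p of 0.05. Without 1 mouse at a time, Hbb-bs ranged from 0.57 (without KPC mouse 1) to 1.22 (without KPC mouse 4), Alas2 from 0.67 to 1.21 and Slc4a1 from 0.90 to 1.58. With a pseudocount of 1 on TPM, Slc4a1 was at 0.60. The count of genes called over all genes was 8, and it was 2 on TPM, 3 without a variance trend and 200 with array weights. With the replicate block by the number of the description it was 4, and by the first number of the title 4. Same-numbered mice had correlations of deviations from the group means of 0.01 to 0.19, so the numbers are not taken to pair the mice. Without 1 mouse it ranged from 2 to 70, the highest without KPC mouse 1. It was 14 without KPC mouse 2, 8 without KPC mouse 3, 2 without KPC mouse 4 and 5 without KPC mouse 5, and 2 to 4 without any 1 of the 5 sham mice. Without the 2 farthest mice, Pearson's r with Slc4a1 was 0.70 for Hbb-bs, 0.67 for Hba-a1 and 0.69 for Hba-a2, with adjusted exact permutation p of 0.0626, 0.0715 and 0.0655. The cause was not tested. Of the ratios, none moved by more than its spread on normalized counts or without any 1 mouse. Slc4a1, at 14.9 to 212 normalized counts per mouse, is the least precise of the 6.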
